A study of Mus musculus with 12 samples.

Results

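The comparison described here sets mouse pups that met lipopolysaccharide a second time (LL) against pups that met it for the first time (SL), all 24 h after the same injection on day 14. Lipopolysaccharide (LPS) is the outer-membrane glycolipid of Gram-negative bacteria. The SL pups received saline under the skin on day 3 and 5 mg/kg LPS into the abdomen on day 14, and the LL pups received 5 mg/kg LPS on both days by the same routes. Both groups therefore carried the day-14 LPS, and they differed in what was given on day 3. The samples were chosen by their group labels, which gave 6 of the 12 libraries of the series, 3 LL and 3 SL, each from a different animal. The other 6 libraries, from pups with saline on both days (SS, 3 animals) and pups with LPS on day 3 and saline on day 14 (LS, 3 animals), entered the fit for the spread and are given as background levels. All pups were C57BL/6J, an inbred laboratory strain, and were killed on day 15. Polyadenylated RNA of the whole hippocampus was sequenced, so neurons, glia, vessels and any adhering tissue were measured together. The labels do not state the sex of the animals.

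LPS is bound by CD14 and by the receptor TLR4 with its partner MD-2, and the adaptors MyD88 and TRIF pass the signal on to the transcription factors NF-kB, AP-1 and the interferon regulatory factors. In the brain, microglia, border macrophages and endothelial cells carry this receptor, and after LPS in the circulation they release cytokines that act on astrocytes and vessels. A second LPS exposure can give a smaller response of some genes in macrophages, known as endotoxin tolerance, and a larger response of others, known as priming or training.

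The 6 libraries held 18258513 to 20801651 fragments in listed genes in SL and 21926635 to 24105022 in LL, so the LL libraries were the deeper ones, and the part of depth in the differences was not tested. In a principal component analysis of the 6 libraries, the first component held 48.4% of the variance and separated the groups, and the second, with 18.2%, set SL 1 apart from SL 2 and SL 3. The ranges of the neuronal marker genes of the hippocampus overlapped between the groups. Slc17a7, the vesicular glutamate transporter of excitatory neurons, was at 274 to 311 FPKM in SL and 293 to 301 in LL. Prox1 was at 16.4 to 25.5 FPKM in SL and 24.4 to 27.0 in LL, and Neurod6 at 86.7 to 97.3 and 96.4 to 106. Wfs1 was at 30.7 to 53.2 FPKM in SL and 23.5 to 40.8 in LL, and Snap25 at 156 to 175 and 148 to 158. FPKM is the number of fragments per kilobase of gene, scaled to the depth of the library, as the authors deposited it. Markers of the choroid plexus, the secretory epithelium in the adjoining ventricle, differed between the groups. Their summed level over 18 genes was 683 to 948 FPKM in SL, 2413 to 3480 in LL, 2374 to 2826 in SS and 38.9 to 1240 in LS. Most of this sum in SL and LL was the 1 gene Ttr, at 605 to 853 FPKM in SL and 2169 to 3086 in LL. Ttr did not pass the test described below, and 6 of the 18 genes were called higher in LL. Neutrophil markers differed the other way, with a sum over 13 genes of 119 to 251 FPKM in SL, 4.50 to 6.38 in LL and 0.964 to 2.11 in SS. Most of the sum in SL came from S100a8, at 35.9 to 79.4 FPKM, and S100a9, at 67.5 to 135. The marker Ly6g was at most 0.1001 FPKM in SL.

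Of 17687 genes tested, 1554 differed between LL and SL, 588 of them higher and 966 lower in LL. These are 8.79% of the tested genes, 3.32% for higher and 5.46% for lower, and these shares are the background against which each gene group is read below. The larger differences were on the lower side, where 294 genes had a log2 difference under -1, 92 under -2 and 39 under -3. Of the higher genes, 66 had a log2 difference over 1, 4 over 2 and 1 over 3. All 588 higher genes and 965 of the 966 lower genes had no overlap between the 3 LL and the 3 SL libraries. The share without overlap among all tested genes is not given, and a call itself favours genes without overlap. Neither this count nor the lack of overlap in single called genes below is therefore further support for a call. The median log2 difference was 0.49 among the higher genes, -0.66 among the lower genes and -0.0039 among all tested genes. Differences are those of log2(FPKM + 0.5), which understates the change of low genes, and each adjusted p is from limma with Benjamini-Hochberg adjustment over all 17687 genes, two-sided, with a threshold of 0.05. In bulk tissue, fewer cells of a type and less RNA per cell cannot be told apart.

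The split between the directions depended on the scaling of the libraries. Higher genes were 37.8% of the calls as deposited, 49.4% after quantile normalization (851 higher, 873 lower), 51.3% after median centring (817 higher, 776 lower) and 48.6% with voom on whole fragments (965 higher, 1022 lower). The number of calls fell to 1004 without LL 1 (326 higher, 678 lower) and to 1026 without SL 2 (351 higher, 675 lower). With the mean level of the choroid plexus list as a covariate, 785 genes were called, 264 higher and 521 lower. Of the 966 lower genes, 88 had passed the filter on low values through the 3 SL libraries alone (102 such genes were tested), and had to differ to be tested. The other 878 were among 17582 genes that passed through other libraries as well. In 551 of the 966 lower genes SL 1 was the highest of the SL libraries, in 321 SL 2 and in 94 SL 3.

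**Figure D1:**
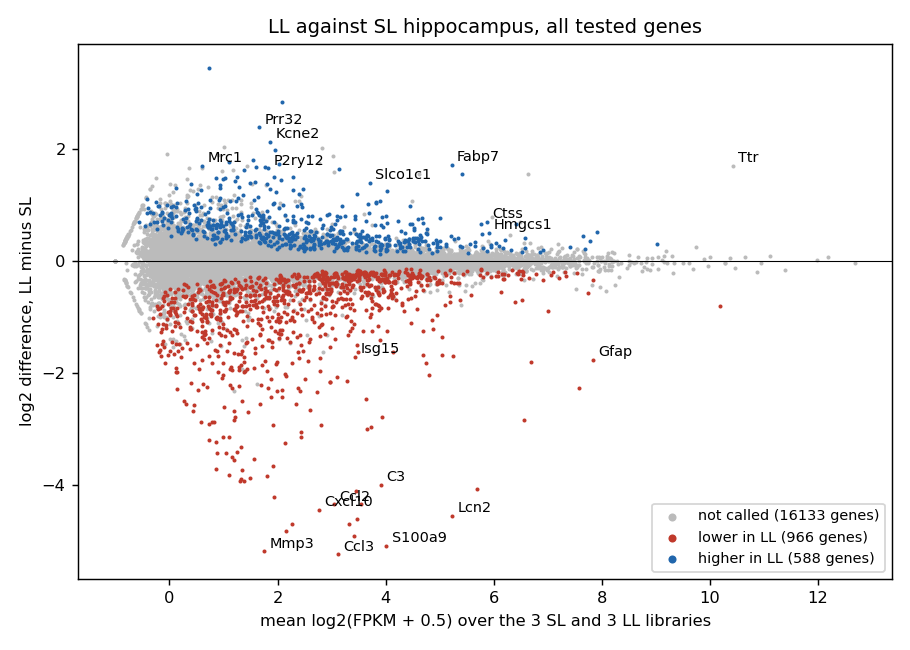
Log2 difference of LL minus SL (vertical axis) against the mean log2(FPKM + 0.5) of the 6 libraries (horizontal axis) for the 17687 tested genes, with the 966 genes lower in LL in red, the 588 higher in LL in blue and the others in grey. The lower genes reach log2 differences near -5, with Ccl3 at -5.25, while 4 of the higher genes pass 2, and Ttr is among the genes not called.

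**Figure D2:**
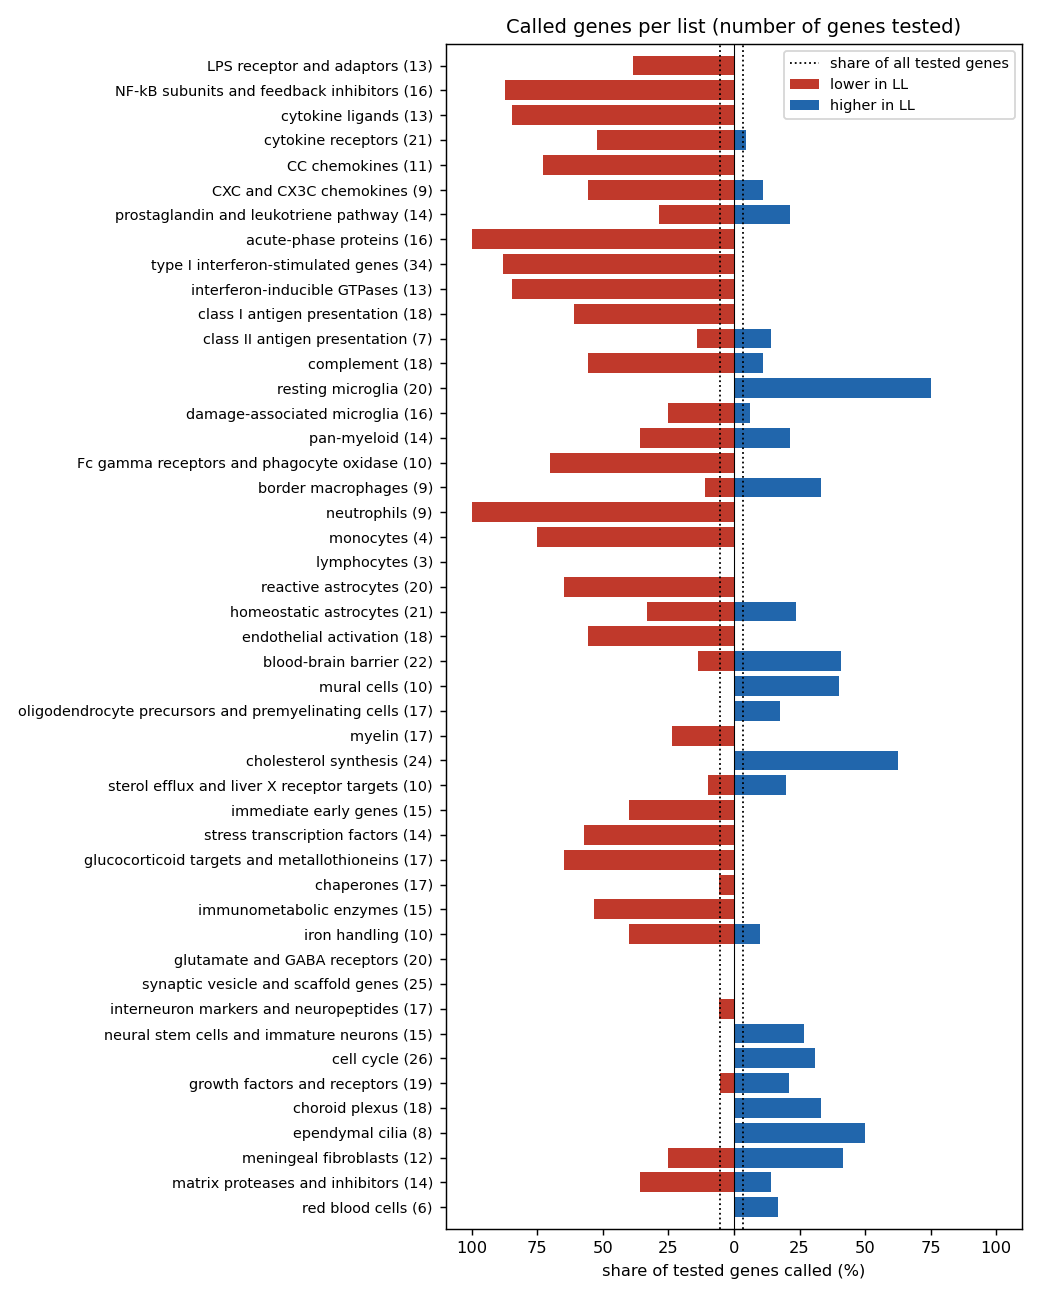
Share of the tested genes of each of 47 gene lists that were called lower in LL (red, to the left) or higher in LL (blue, to the right), with the number of tested genes in brackets and the shares among all tested genes, 5.46% lower and 3.32% higher, as dotted lines. Acute-phase and neutrophil genes were lower in LL in 16 of 16 and 9 of 9 cases. In both lists, 6 genes passed the filter through SL alone and had to differ to be tested. Of the resting microglial genes 15 of 20 were higher, and no glutamate, GABA or synaptic gene was called.

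Genes that sense LPS were in part lower in LL. Of 13 tested genes of the LPS receptor and its adaptors, 5 were lower, none was higher and 8 were not called, with a median log2 difference of -0.35. Cd14, the coreceptor that hands LPS to TLR4, was at 43.4, 33.9 and 33.1 FPKM in the SL libraries and at 4.45, 4.52 and 3.82 FPKM in the LL libraries (log2 difference -2.96, SE 0.13, adjusted p = 5.4e-07). All 3 SL animals stood above all 3 LL animals, and the gene was at 1.14 ± 0.0641 FPKM in SS (SD, n = 3). Tlr2, the receptor for bacterial lipoproteins, was at 16.7, 16.7 and 14.7 FPKM in SL and 2.59, 3.94 and 3.19 in LL (log2 difference -2.16, SE 0.18, adjusted p = 2.5e-05). Irak3, a kinase-like inhibitor of the MyD88 pathway, was at 4.68, 3.72 and 2.55 FPKM in SL and 0.460, 0.489 and 0.506 in LL (log2 difference -2.04, SE 0.19, adjusted p = 4.5e-05). Myd88, the adaptor itself, was at 6.17, 5.88 and 4.39 FPKM in SL and 1.86, 2.43 and 2.68 in LL (log2 difference -1.08, SE 0.18, adjusted p = 0.0032). Every SL library lay above every LL library for these genes too. Tlr4 was at 0.679, 0.597 and 0.688 FPKM in SL and at 0.521, 0.469 and 0.404 FPKM in LL and did not pass the test (log2 difference -0.26, SE 0.13, adjusted p = 0.32). The genes of the kinases Irak1 and Irak4 and of the ligase Traf6, which act below MyD88, had log2 differences of -0.03, -0.07 and -0.09 and were not called.

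Below the receptor, 14 of 16 tested genes of NF-kB and its feedback inhibitors were lower in LL and none was higher, with a median log2 difference of -1.31. NF-kB drives transcription of its own inhibitors, so these genes are commonly read as targets of the pathway. Nfkbia, which encodes the inhibitor IkB-alpha, was at 53.6, 46.1 and 38.1 FPKM in SL, 14.1, 14.4 and 13.3 in LL and 10.2 ± 1.54 FPKM in SS (SD, n = 3) (log2 difference -1.67, SE 0.12, adjusted p = 7.7e-06 for LL against SL). The LL libraries lay close together and well below the lowest SL library. Socs3, an inhibitor of cytokine signals through STAT3, was at 22.7, 17.9 and 16.5 FPKM in SL and 1.35, 3.20 and 1.84 in LL (log2 difference -2.94, SE 0.22, adjusted p = 1.1e-05). Bcl3, a nuclear member of the IkB family, was at 7.97, 7.33 and 6.52 FPKM in SL and 0.748, 0.890 and 0.821 in LL (log2 difference -2.56, SE 0.12, adjusted p = 6.1e-07). Zc3h12a, a ribonuclease that degrades cytokine messages, had SL libraries from 3.21 to 3.33 FPKM and LL libraries from 0.530 to 0.593 (log2 difference -1.83, SE 0.11, adjusted p = 2.5e-06), and the subunit gene Nfkb2 was lower as well (log2 difference -1.73, SE 0.09, adjusted p = 8.9e-07). The groups were far apart in all of these. Rel and Cyld were the 2 genes of the list that were not called, at -0.36 and -0.16.

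Cytokine ligands were lower in LL in 11 of 13 tested genes, and none was higher. The median was -1.50, but 6 of the 11 (Il1rn, Il6, Tnf, Lif, Il12b and Csf3) passed the filter through the SL libraries alone, and 7 further listed ligands, among them Il10, Ifnb1 and Ifng, were under the filter. Il1b, the ligand of the interleukin-1 receptor, was at 15.95, 12.05 and 11.2 FPKM in the SL libraries and at 0.443, 0.825 and 0.444 FPKM in the LL libraries (log2 difference -3.67, SE 0.18, adjusted p = 7.2e-07), beside 0.0812 ± 0.0897 FPKM in SS (SD, n = 3). Tnf stood at 7.86, 9.62 and 9.06 FPKM in SL and 0.0982, 0.357 and 0.155 in LL (log2 difference -3.74, SE 0.15, adjusted p = 3.0e-07). Csf3, the growth factor of granulocytes, was at 12.2, 6.39 and 5.49 FPKM in SL and at 0, 0.0318 and 0.180 in LL (log2 difference -3.83, SE 0.25, adjusted p = 4.2e-06). In Il1b the lowest SL animal was far above the highest LL animal. Tnf and Csf3 passed the filter through SL alone, so the separation of their groups was fixed by the filter. Il6 was low in both groups, at 1.13, 0.983 and 0.708 FPKM in SL and 0, 0.0185 and 0 in LL (log2 difference -1.50, SE 0.17, adjusted p = 1.9e-04). Il18 and Il34, the neuronal ligand of the CSF-1 receptor, were not called (0.14 and 0.02).

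Of 21 tested cytokine receptor genes, 11 were lower in LL and 1, Tgfbr1, was higher (median -0.44). Osmr, the receptor chain for oncostatin M, was at 6.30, 4.23 and 3.81 FPKM in SL and 0.717, 0.954 and 0.779 in LL (log2 difference -1.98, SE 0.16, adjusted p = 1.8e-05). Il1r1, the signalling receptor of interleukin-1, was at 7.88, 4.71 and 5.14 FPKM in SL and 1.99, 2.36 and 1.92 in LL (log2 difference -1.28, SE 0.18, adjusted p = 0.0011). Its decoy Il1r2, which passed the filter through SL alone, was lower too (log2 difference -2.19, SE 0.26, adjusted p = 3.0e-04). Tnfrsf1a, the broadly expressed TNF receptor, was at 17.8, 14.8 and 12.9 FPKM in SL and 5.06, 6.82 and 5.42 in LL (log2 difference -1.32, SE 0.13, adjusted p = 6.5e-05). The interferon receptor genes Ifnar1, Ifnar2, Ifngr1 and Ifngr2 were not called, with log2 differences between -0.19 and 0.09.

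Chemokines were among the genes that differed most, and Ccl3 had the largest log2 difference of all called genes in the fit as reported. That rank depended on the processing. Over the 21 alternatives given at the end, Ccl3 ran from -5.84 to -4.82 and the protease gene Mmp3 from -8.22 to -4.31. Of 11 tested CC chemokine genes, 8 were lower in LL and none was higher (median -2.03), but 2 of the 8, Ccl5 and Ccl11, passed the filter through SL alone. Of 9 tested CXC and CX3C chemokine genes, 5 were lower and 1, Cxcl12, was higher (median -1.21). Ccl3, a chemokine that draws myeloid cells (chromosome 11, 83647844 to 83649355, minus strand, mm10), was at 63.97, 58.1 and 39.7 FPKM in the SL libraries and 1.21, 0.470 and 1.16 in the LL libraries (log2 difference -5.25, SE 0.30, adjusted p = 2.5e-06). Ccl4, its neighbour in the same cluster (chromosome 11, 83662584 to 83664683, plus strand, mm10), was at 20.5, 28.1 and 22.3 FPKM in SL and 0.549, 0.136 and 0.385 in LL (log2 difference -4.84, SE 0.20, adjusted p = 3.4e-07). Ccl2, the main attractant of CCR2-bearing monocytes, was at 52.97, 34.00 and 27.7 FPKM in SL, 1.03, 1.58 and 1.41 in LL and 0.0514 ± 0.0516 FPKM in SS (SD, n = 3) (log2 difference -4.35, SE 0.23, adjusted p = 1.4e-06). No LL library came near the lowest SL library in any of these 3 genes.

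Among the CXC chemokines, Cxcl10 recruits T cells through CXCR3 and is driven by interferons and NF-kB together. It was at 31.3, 36.7 and 26.7 FPKM in SL and 0.661, 1.32 and 0.939 in LL (log2 difference -4.46, SE 0.17, adjusted p = 3.0e-07). Cxcl1, a ligand of the neutrophil receptor CXCR2, was at 26.96, 13.7 and 11.1 FPKM in SL and 0.236, 0.528 and 0.429 in LL (log2 difference -4.22, SE 0.26, adjusted p = 3.3e-06). The groups did not overlap in either gene. Cxcl2, which binds the same receptor and passed the filter through SL alone, was lower as well (log2 difference -3.21, SE 0.22, adjusted p = 5.6e-06). So was Cxcl5, likewise tested through SL alone (log2 difference -3.41, SE 0.31, adjusted p = 4.0e-05). Cx3cl1, the neuronal ligand of the microglial receptor CX3CR1, was not called (-0.14). The call of Cxcl12 was lost without SL 2, SL 3 or LL 1.

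The promoters of Cxcl10 and Cxcl1 show where NF-kB-like letters lie beside 2 of these genes. The windows run from 250 bases before to 50 bases after the start of the gene in RefSeq, build GRCm38.p6, 5′ to 3′ on the strand of the gene. Capitals mark matches, on either strand, to the NF-kB-like motif GGG-any 3 bases-TTCC, the interferon response motif GAAA-any 2 bases-GAAA or the AP-1 motif TGANTCA. The windows printed here and below were picked after their matches were seen. Cxcl10 lies at chr5:92348840-92349139 on the minus strand and Cxcl1 at chr5:90890995-90891294 on the plus strand.
Cxcl10: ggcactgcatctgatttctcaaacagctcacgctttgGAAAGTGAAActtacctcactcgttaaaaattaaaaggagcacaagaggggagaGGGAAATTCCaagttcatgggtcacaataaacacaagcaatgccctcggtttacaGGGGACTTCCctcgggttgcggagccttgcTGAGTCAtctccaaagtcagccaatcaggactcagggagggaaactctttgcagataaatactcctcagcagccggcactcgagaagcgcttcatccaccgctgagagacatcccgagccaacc
Cxcl1: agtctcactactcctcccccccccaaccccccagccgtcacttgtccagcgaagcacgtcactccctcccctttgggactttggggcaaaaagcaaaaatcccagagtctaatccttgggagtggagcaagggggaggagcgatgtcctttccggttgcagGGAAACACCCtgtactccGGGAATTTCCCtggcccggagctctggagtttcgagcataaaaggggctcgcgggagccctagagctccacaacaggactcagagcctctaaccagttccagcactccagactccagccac
In Cxcl10, NF-kB-like matches began 159 and 104 bases before the start, an interferon response match 213 and an AP-1 match 74 bases before it. In Cxcl1, 3 NF-kB-like matches began 89, 71 and 70 bases before the start, the last 2 overlapping on opposite strands. Windows were found for 11585 of 17678 tested gene symbols. The NF-kB-like motif was in 7.18% of all these windows, in 12.1% of the 729 windows of genes lower in LL and in 6.0% of the 433 windows of genes higher in LL. In the list of NF-kB subunits and inhibitors it was in 7 of 13 windows. In the chemokine lists it was in 1 of 6 windows of CC genes and 3 of 7 windows of CXC and CX3C genes. A match is a string of letters and not a measured site, and these shares are a description.

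Of 14 tested genes of prostaglandin and leukotriene synthesis, 4 were lower and 3 higher in LL. Ptges, the inducible prostaglandin E synthase, was at 12.9, 8.11 and 5.60 FPKM in SL and 1.11, 1.35 and 1.37 in LL (log2 difference -2.33, SE 0.21, adjusted p = 4.6e-05). The inducible cyclooxygenase gene Ptgs2 was lower in LL as well (-0.78), while Ptgs1, the constitutive enzyme, was at 1.59, 1.79 and 2.04 FPKM in SL and 3.24, 3.63 and 4.23 in LL (log2 difference 0.86, SE 0.11, adjusted p = 5.8e-04). Hpgds, the haematopoietic prostaglandin D synthase of microglia, was at 0.778, 1.03 and 1.03 FPKM in SL and 2.32, 2.69 and 2.11 in LL (log2 difference 0.99, SE 0.14, adjusted p = 7.8e-04). The other lower genes were Ptges2, a prostaglandin E synthase that is not inducible (log2 difference -0.27, adjusted p = 0.03), and Alox5, the lipoxygenase that starts leukotriene synthesis (-0.64, adjusted p = 0.0078). Ltc4s, which makes leukotriene C4, was the other higher gene (log2 difference 1.07, SE 0.25, adjusted p = 0.022), and the call was lost without SL 1, SL 3, LL 1 or LL 3 (adjusted p up to 0.093).

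Acute-phase genes encode secreted proteins that rise with inflammation. All 16 tested genes were lower in LL, with a median of -2.49, and 6 of them (Saa2, Orm1, Orm2, Serpina3f, Serpina3h and Serpina3i) passed the filter through SL alone. Lcn2, a lipocalin that binds bacterial iron carriers (chromosome 2, 32384633 to 32388252, minus strand, mm10), was at 283, 165 and 129.8 FPKM in SL, 4.02, 13.6 and 6.84 in LL and 0.184 ± 0.190 FPKM in SS (SD, n = 3) (log2 difference -4.56, SE 0.47, adjusted p = 9.9e-05). Saa3, a serum amyloid A protein, was at 254, 223 and 167 FPKM in SL and 6.93, 17.01 and 14.6 in LL (log2 difference -4.08, SE 0.38, adjusted p = 4.9e-05). In both genes LL 2 was the highest LL library and SL 1 the highest SL library. Ptx3, a pattern-recognition pentraxin, was at 109, 50.6 and 36.1 FPKM in SL and 1.54, 1.42 and 1.36 in LL (log2 difference -4.93, SE 0.30, adjusted p = 3.3e-06). Steap4, a metalloreductase, was at 78.8, 51.5 and 32.7 FPKM in SL and 1.08, 1.62 and 1.76 in LL (log2 difference -4.71, SE 0.30, adjusted p = 4.2e-06). No library of one group reached the range of the other in these genes. Members of the Saa, Orm and Serpina3 families have near-identical copies, and no source used here says how shared fragments were counted, so each of them is uncertain.

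Complement genes were lower in LL in 10 of 18 tested cases, with Cfb tested through SL alone, and higher in 2 (median -0.71). C3, the central component of the cascade, was at 66.8, 77.3 and 41.5 FPKM in SL, 1.92, 5.11 and 3.45 in LL and 0.210 ± 0.0133 FPKM in SS (SD, n = 3) (log2 difference -4.00, SE 0.28, adjusted p = 6.7e-06). C1ra, a protease that starts the classical pathway with C1q, was at 12.3, 8.80 and 6.58 FPKM in SL and 1.12, 2.17 and 1.12 in LL (log2 difference -2.30, SE 0.26, adjusted p = 1.8e-04). Its partner C1s1 was lower too (log2 difference -2.10, SE 0.17, adjusted p = 2.3e-05), as was C5ar1, the receptor of the peptide C5a (log2 difference -1.97, SE 0.16, adjusted p = 2.5e-05). None of the 3 chains of C1q was lower. C1qa was at 67.8, 89.5 and 95.1 FPKM in SL and 101, 108 and 105 in LL and was not called (log2 difference 0.33, SE 0.13, adjusted p = 0.17), although its groups did not overlap, and it passed the test with voom. C1qb was not called (0.15), and C1qc was higher (0.40). The count of 2 higher genes, C1qc and Cd59a, went to 0 without LL 2 and to 1 without SL 2, SL 3 or LL 3.

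Interferon-stimulated genes were lower in LL in 30 of 34 tested cases, none was higher, and the median was -0.84. Isg15, a ubiquitin-like modifier (chromosome 4, 156199424 to 156200818, minus strand, mm10), was at 15.2, 23.3 and 19.9 FPKM in SL, 4.26, 5.17 and 7.44 in LL and 1.40 ± 0.396 FPKM in SS (SD, n = 3) (log2 difference -1.72, SE 0.21, adjusted p = 3.0e-04). SL 2 was the highest library and LL 3 the highest of the LL group. Ifit3, an antiviral RNA-binding protein, was at 13.6, 23.7 and 15.3 FPKM in SL and 3.25, 3.38 and 4.49 in LL (log2 difference -2.07, SE 0.19, adjusted p = 5.6e-05). It shares much of its sequence with Ifit3b, which was lower as well (log2 difference -1.86, SE 0.19, adjusted p = 1.1e-04), so neither is certain. Rsad2, the antiviral enzyme viperin, was at 2.68, 5.25 and 3.72 FPKM in SL and 0.557, 0.560 and 0.761 in LL (log2 difference -1.92, SE 0.19, adjusted p = 7.4e-05). Ifit1 was lower too (log2 difference -1.81, SE 0.18, adjusted p = 7.8e-05). The other 25 lower genes of the list, with log2 differences from -1.78 to -0.47, include the signalling factors Stat2 (-0.47) and Irf9 (-0.58). The count fell to 19 with the choroid plexus covariate.

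The interferon-inducible GTPases, which attack membranes around intracellular microbes, were lower in 11 of 13 tested genes (median -1.20), with Gbp6 tested through SL alone. Gbp5 was at 7.87, 6.92 and 5.10 FPKM in SL and 0.424, 0.752 and 0.586 in LL (log2 difference -2.70, SE 0.16, adjusted p = 2.7e-06). Gbp2 was at 18.9, 15.9 and 10.7 FPKM in SL and 1.52, 2.001 and 2.30 in LL (log2 difference -2.66, SE 0.20, adjusted p = 1.4e-05). Class I antigen presentation was lower in 11 of 18 tested genes, with smaller differences (median -0.43), and the count, in which Nlrc5 was tested through SL alone, fell to 6 with the choroid plexus covariate. H2-K1, a classical class I heavy chain, was at 52.9, 44.1 and 37.8 FPKM in SL, 21.7, 28.6 and 27.5 in LL and 7.26 ± 0.596 FPKM in SS (SD, n = 3) (log2 difference -0.78, SE 0.12, adjusted p = 0.0021). The LL libraries lay between the SS and the SL libraries. Tap2, a subunit of the transporter that feeds peptides to class I molecules, was at 6.06, 5.32 and 4.34 FPKM in SL and 2.07, 2.41 and 2.15 in LL (log2 difference -1.07, SE 0.11, adjusted p = 1.3e-04), and the other subunit gene Tap1 was lower too (log2 difference -0.78, SE 0.13, adjusted p = 0.0028). The H2 and Gbp families also hold near-identical copies. Of 7 tested class II genes, 5 were not called, with H2-Aa at -0.43 and H2-Eb1 at 0.01.

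The promoter of Isg15, at chr4:156200769-156201068 on the minus strand (RefSeq, GRCm38.p6), is shown because it holds 3 interferon response matches in a row, in capitals.
Isg15: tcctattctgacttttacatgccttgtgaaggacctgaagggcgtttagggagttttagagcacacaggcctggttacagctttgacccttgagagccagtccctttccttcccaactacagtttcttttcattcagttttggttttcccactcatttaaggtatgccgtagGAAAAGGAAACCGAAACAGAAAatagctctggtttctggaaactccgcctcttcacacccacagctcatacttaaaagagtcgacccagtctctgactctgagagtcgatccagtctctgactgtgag
They began 78, 72 and 66 bases before the start, and each overlapped the next. The interferon response motif was in 3.6% of all 11585 windows, 8.09% of those of lower genes and 3.23% of those of higher genes. It was in 13 of 23 windows of the interferon-stimulated list (56.5%), 8 of 9 of the GTPase list (88.9%) and 4 of 16 of the class I list (25%).

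Resting microglial genes went the other way. Of 20 tested genes, 15 were higher in LL, none was lower, and the median was 0.75. P2ry12, the purine receptor that steers microglial processes towards ATP (chromosome 3, 59216272 to 59262871, minus strand, mm10), was at 1.13, 1.53 and 1.87 FPKM in the SL libraries, 6.76, 5.26 and 5.40 in the LL libraries and 13.99 ± 0.560 FPKM in SS (SD, n = 3) (log2 difference 1.66, SE 0.13, adjusted p = 2.2e-05). The LL animals stood between the SL and the SS animals for this gene. Tmem119, a microglial membrane protein, was at 4.67, 6.25 and 7.30 FPKM in SL, 12.4, 12.1 and 12.6 in LL and 8.09 ± 0.154 FPKM in SS (SD, n = 3) (log2 difference 0.99, SE 0.13, adjusted p = 4.9e-04), so the LL libraries were the highest of the 3 groups. Trem2, a lipid receptor, was at 0.582, 0.891 and 1.36 FPKM in SL and 4.001, 3.43 and 3.17 in LL (log2 difference 1.51, SE 0.18, adjusted p = 2.4e-04). Siglech, a sialic acid binding receptor, was at 0.404, 0.583 and 0.803 FPKM in SL and 3.19, 1.99 and 2.60 in LL (log2 difference 1.49, SE 0.16, adjusted p = 1.1e-04), and Gpr34, a receptor for lysophosphatidylserine, was higher by a similar amount (log2 difference 1.47, SE 0.19, adjusted p = 5.4e-04). SL 1, which had the highest levels of Lcn2, Saa3, Ptx3 and Steap4, was the lowest for P2ry12, Tmem119, Trem2 and Siglech. The 5 genes that were not called were P2ry6 (0.03), Slc2a5 (0.39), Mertk (-0.02), Sparc (-0.11) and Crybb1 (1.16). With the LL and SL libraries alone in the fit, 11 genes of the list were called higher, and 12 with the choroid plexus covariate.

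The promoter of P2ry12, at chr3:59262936-59263235 on the minus strand (RefSeq, GRCm38.p6), is shown as the window of the resting microglial gene with the largest difference, and it does not represent the genes higher in LL. Its 1 match, to the NF-kB-like motif, began 51 bases before the start and is in capitals, and it is the 1 such window of 14 in the resting microglial list.
P2ry12: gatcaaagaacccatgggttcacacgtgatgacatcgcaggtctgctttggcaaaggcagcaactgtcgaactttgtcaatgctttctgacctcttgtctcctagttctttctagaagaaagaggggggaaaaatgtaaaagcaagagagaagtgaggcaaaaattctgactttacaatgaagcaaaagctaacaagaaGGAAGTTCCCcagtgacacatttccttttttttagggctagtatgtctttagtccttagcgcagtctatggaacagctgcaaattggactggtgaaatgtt
The motif of the myeloid factor PU.1, GAGGAAGT, was in 1 of 14 windows of the resting microglial list, 3.44% of all windows, 5.35% of those of lower genes and 3.93% of those of higher genes.

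Genes that myeloid cells share were called in both directions. Of 14 tested pan-myeloid genes, 5 were lower, 3 were higher and 6 were not called (median -0.15). Aif1 (Iba1), the common stain for microglia, was at 7.57, 7.79 and 7.92 FPKM in SL, 9.14, 8.19 and 9.97 in LL and 2.16 ± 0.409 FPKM in SS (SD, n = 3), and was not called (log2 difference 0.21, SE 0.11, adjusted p = 0.31). Lyz2, lysozyme, was at 75.9, 66.1 and 62.6 FPKM in SL and 19.9, 21.3 and 20.6 in LL (log2 difference -1.70, SE 0.11, adjusted p = 4.5e-06). Adgre1, an adhesion receptor of macrophages, was at 13.9, 14.2 and 13.6 FPKM in SL and 7.37, 7.80 and 6.81 in LL (log2 difference -0.88, SE 0.11, adjusted p = 3.0e-04). The actin bundler gene Lcp1 was lower too (log2 difference -0.85, SE 0.09, adjusted p = 1.1e-04). Ly86 (MD-1), a partner of the TLR4 homologue RP105, was higher, at 3.31, 4.34 and 5.07 FPKM in SL and 6.97, 8.23 and 8.003 in LL (log2 difference 0.81, SE 0.13, adjusted p = 0.0018). Of the 2 groups, SL had the higher values of Lyz2 and Adgre1 and LL those of Ly86.

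Ctss, a lysosomal protease of microglia that trims the class II chaperone, was higher in LL as well. It was at 43.5, 46.4 and 46.9 FPKM in SL, 68.7, 78.7 and 76.4 in LL, 19.5 ± 0.868 FPKM in SS (SD, n = 3) and 28.5 in LS as a mean (log2 difference 0.70, SE 0.06, adjusted p = 2.2e-05). The order of the group means was SS, LS, SL and LL, and the SL and LL libraries did not overlap. Cd74, the class II chaperone itself, was lower in LL (log2 difference -1.02, SE 0.24, adjusted p = 0.021), and the call was lost without SL 1, LL 1, LL 2 or LL 3 (adjusted p up to 0.076).

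The phagocyte oxidase and Fc receptor genes were lower in 7 of 10 tested cases and higher in none (median -0.83). Cybb, the catalytic subunit of the oxidase that makes superoxide, was at 9.48, 8.04 and 6.81 FPKM in SL, 1.10, 0.898 and 1.24 in LL and 0.173 ± 0.0171 FPKM in SS (SD, n = 3) (log2 difference -2.44, SE 0.13, adjusted p = 1.7e-06). Its cytosolic partner Ncf1 was at 9.95, 10.2 and 9.49 FPKM in SL and 4.05, 4.22 and 4.30 in LL (log2 difference -1.15, SE 0.08, adjusted p = 5.2e-06), and another partner, Ncf4, was lower too (log2 difference -1.07, SE 0.15, adjusted p = 8.5e-04). The 3 LL libraries were alike and below all SL libraries in both. The inhibitory Fc receptor Fcgr2b was at 7.58, 5.28 and 4.53 FPKM in SL and 1.38, 2.21 and 1.78 in LL (log2 difference -1.45, SE 0.17, adjusted p = 3.0e-04), while the activating receptors Fcgr1, Fcgr3 and Fcgr4 were not called (0.22, -0.03 and -0.64).

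**Figure D3:**
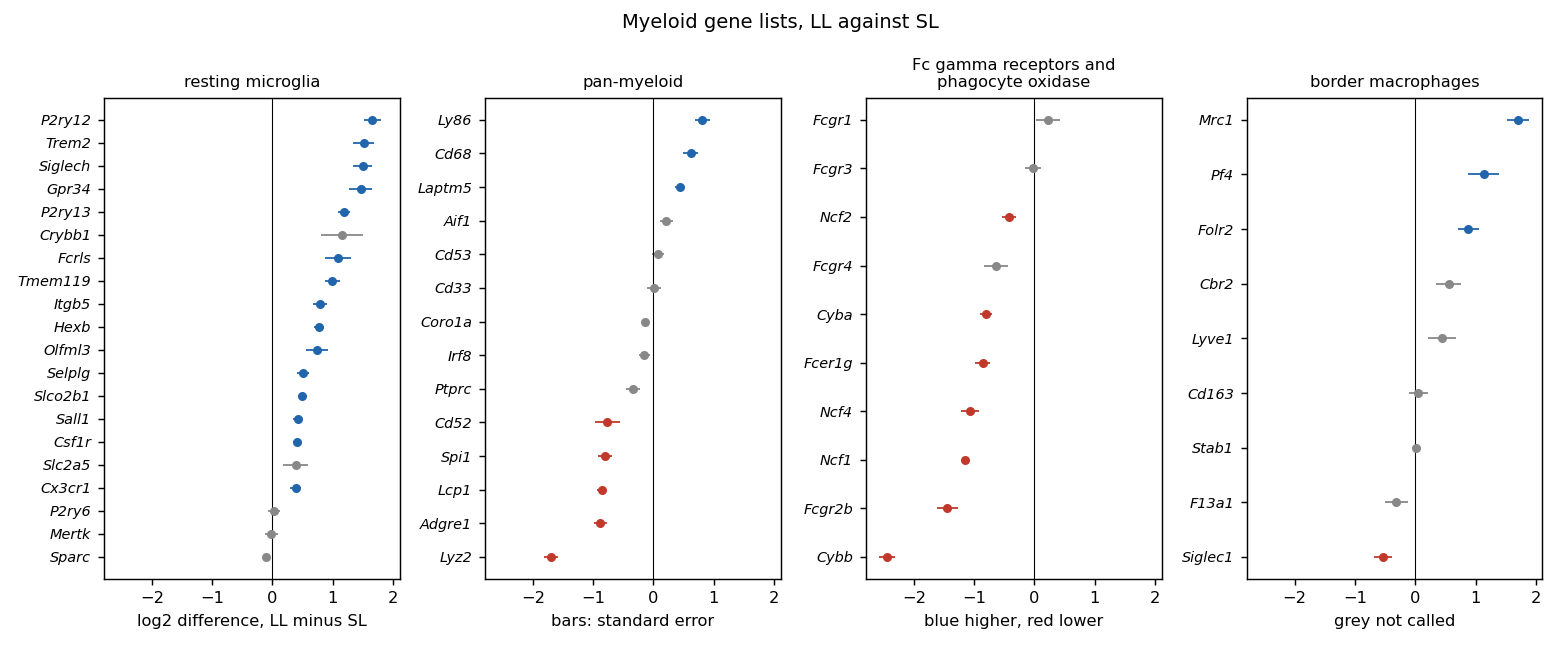
Log2 difference of LL minus SL (horizontal axis, with the standard error as bars) of each tested gene of 4 myeloid lists, with genes higher in LL in blue, lower in red and not called in grey. Resting microglial genes lie to the right up to P2ry12 at 1.66, oxidase genes to the left down to Cybb at -2.44, and the pan-myeloid list spans both sides from Lyz2 at -1.70 to Ly86 at 0.81.

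Of 16 tested genes of damage-associated microglia, a state described in neurodegeneration, 4 were lower and 1 was higher in LL. The count of higher genes was 2 without SL 1, LL 1 or LL 3 and 3 with voom. Fth1, the ferritin heavy chain, was at 1799, 1461 and 1375 FPKM in SL and 848, 897 and 886 in LL (log2 difference -0.81, SE 0.11, adjusted p = 5.5e-04). No LL library reached the lowest SL library. Gpnmb, a glycoprotein that passed the filter through SL alone, was lower too (log2 difference -1.22, SE 0.15, adjusted p = 4.1e-04). Lpl, lipoprotein lipase, was at 9.88, 8.19 and 9.84 FPKM in SL and 13.2, 14.04 and 13.7 in LL (log2 difference 0.53, SE 0.09, adjusted p = 0.0032). Apoe (0.25), Axl (-0.04) and Tyrobp (-0.06) were not called.

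Border macrophages sit in the meninges, around vessels and on the choroid plexus. Of 9 tested genes, 3 were higher and 1 lower in LL (median 0.44), and the summed level of the 11 listed genes was 9.84 to 11.5 FPKM in SL and 14.1 to 17.6 in LL. Mrc1, the mannose receptor CD206, was at 0.244, 0.285 and 0.539 FPKM in SL, 2.24, 2.77 and 1.84 in LL and 1.19 ± 0.311 FPKM in SS (SD, n = 3) (log2 difference 1.70, SE 0.18, adjusted p = 1.5e-04). Folr2, a folate receptor, was at 0.0305, 0.134 and 0.0717 FPKM in SL and 0.650, 0.494 and 0.547 in LL (log2 difference 0.88, SE 0.18, adjusted p = 0.0097), levels that rest on few fragments. The lower gene was Siglec1, a sialic acid binding receptor (log2 difference -0.53, adjusted p = 0.048), and the call was lost without SL 1, SL 2, LL 1, LL 2 or LL 3 (adjusted p up to 0.18). Pf4 was the other higher gene (log2 difference 1.13, SE 0.26, adjusted p = 0.021), and the call was lost without SL 2, SL 3, LL 1, LL 2 or LL 3 (adjusted p up to 0.085). Choroid plexus markers also had higher values in LL (Ttr 605 to 853 FPKM in SL and 2169 to 3086 in LL). In SS, the summed level of the border macrophage genes was 8.46 to 11.6 FPKM. With the choroid plexus covariate, Mrc1 and Folr2 kept their calls, and Pf4 and Siglec1 lost theirs. That covariate itself differed between the groups, and the part of the choroid plexus in this result was not tested in another way.

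All 9 tested neutrophil genes were lower in LL (median -2.68), of which 6 passed the filter through SL alone. These 6 were Ngp, Camp, Mmp8, Retnlg, Cxcr2 and Cd177, and the separation of their groups was fixed by the filter. S100a8, a subunit of calprotectin, was at 79.4, 49.8 and 35.9 FPKM in SL and 2.26, 1.75 and 2.32 in LL (log2 difference -4.34, SE 0.23, adjusted p = 1.7e-06). S100a9, the other subunit, was at 135, 90.5 and 67.5 FPKM in SL and 2.85, 1.38 and 2.84 in LL (log2 difference -5.10, SE 0.32, adjusted p = 3.6e-06). The SL libraries were far above the LL libraries, with SL 1 the highest in both. Retnlg, a granulocyte-derived resistin-like protein, was at 6.04, 3.94 and 5.51 FPKM in SL and 0.136, 0.152 and 0 in LL (log2 difference -3.24, SE 0.19, adjusted p = 2.7e-06). The granule protein gene Ngp was at 8.65, 2.72 and 2.99 FPKM in SL, with SL 1 well above the others, and 0.198, 0.184 and 0.0346 in LL (log2 difference -2.88, SE 0.33, adjusted p = 2.3e-04). Of the defining markers, Ly6g was at 0.0551 to 0.1001 FPKM in SL and at 0 in every LL library, and Elane was at 0 in every SL library.

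Monocyte markers were sparse: 4 of 9 listed genes could be tested, and 3 of them were lower. Of these 3, Chil3 and Ms4a4c passed the filter through SL alone, and the count went to 1 without SL 2, LL 1 or LL 2. Chil3 was at 5.84, 3.27 and 2.31 FPKM in SL and 0.0739, 0 and 0.0778 in LL (log2 difference -2.89, SE 0.26, adjusted p = 3.9e-05), whereas Ly6c2, at 0.283 to 0.430 FPKM in SL and 0.0164 to 0.0587 in LL, and Ccr2, at most 0.107 in SL, were under the filter. Of 15 lymphocyte genes, 3 could be tested and none was called by limma or voom, with 1 at an unadjusted p under 0.05 (log2 differences of 0.32, -0.47 and 0.79). Red blood cell genes, a sign of blood left in the tissue, summed to 70.5 to 107 FPKM in SL and 90.6 to 154 in LL, and 1 of 6 tested genes, Hbb-bt, which has a near-identical copy, was called higher (log2 difference 0.82, SE 0.19, adjusted p = 0.018), with the call lost without SL 2 or LL 1 (adjusted p up to 0.076).

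**Figure D4:**
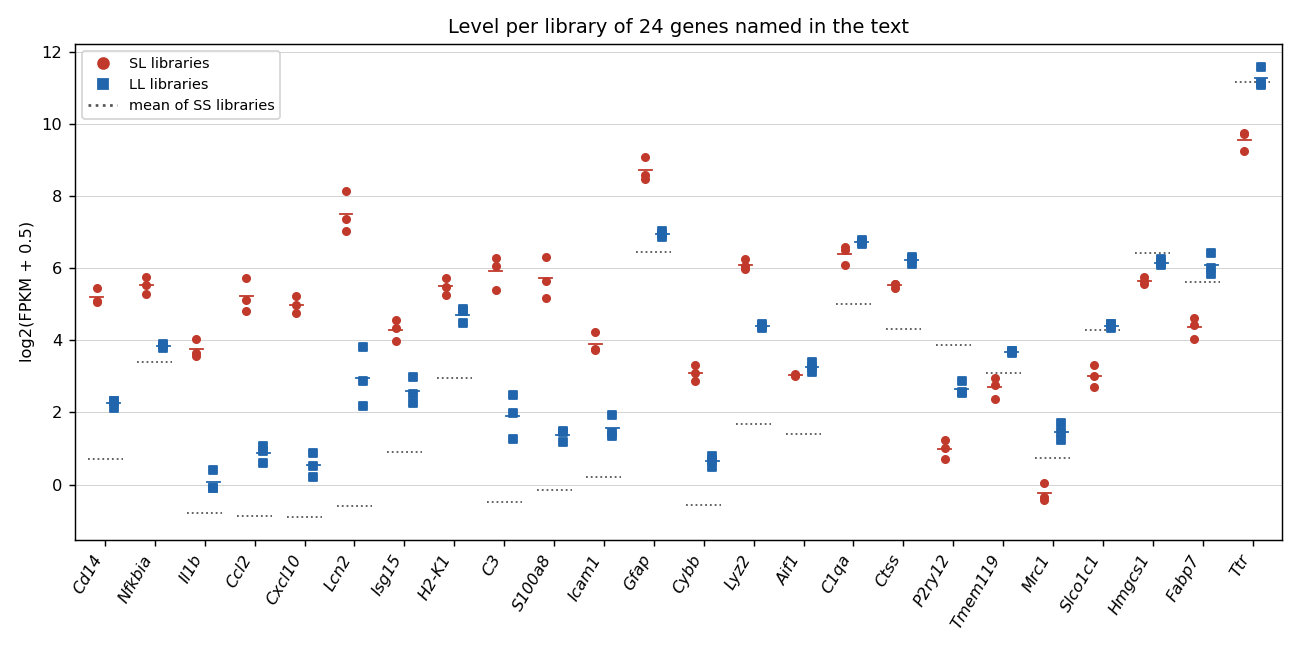
Level of 24 genes in each SL library (red circles) and LL library (blue squares) on the log2(FPKM + 0.5) scale, with a short line at the mean of each group and a dotted line at the mean of the SS libraries. From Cd14 to Lyz2 the SL libraries lie above the LL libraries and from Aif1 to Ttr below them. Aif1, C1qa and Ttr were not called.

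Reactive astrocyte genes were lower in LL in 13 of 20 tested cases and higher in none (median -1.22), and 2 of the 13 were tested through SL alone. Gfap, the intermediate filament of astrocytes, was at 542, 382 and 357 FPKM in SL, 122, 130.3 and 116 in LL and 87.2 ± 1.99 FPKM in SS (SD, n = 3) (log2 difference -1.77, SE 0.13, adjusted p = 8.2e-06). Timp1, an inhibitor of matrix proteases that reactive astrocytes secrete, was at 74.6, 38.5 and 31.5 FPKM in SL and 1.72, 2.48 and 2.24 in LL (log2 difference -4.11, SE 0.30, adjusted p = 1.1e-05). Aspg, an asparaginase, was at 20.6, 13.6 and 13.5 FPKM in SL and 1.22, 1.32 and 1.44 in LL (log2 difference -3.14, SE 0.18, adjusted p = 2.1e-06). Tgm1, a transglutaminase that passed the filter through SL alone, was lower too (log2 difference -3.89, SE 0.24, adjusted p = 3.7e-06). In Gfap, Timp1, Aspg and Tgm1 SL 1 was the highest library. The 7 genes that were not called include Amigo2 (-0.29), Emp1 (-0.02) and B3gnt5 (-0.02).

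Genes that astrocytes use at rest went in both directions, 7 of 21 lower and 5 higher. Aqp4, the water channel of astrocyte endfeet, was at 73.4, 53.2 and 51.8 FPKM in SL and 41.6, 39.2 and 34.8 in LL (log2 difference -0.61, SE 0.12, adjusted p = 0.0087). The connexin gene Gjb6 was lower as well (log2 difference -0.70, SE 0.12, adjusted p = 0.003). Kcnj10, the potassium channel that buffers this ion, was at 15.6, 18.4 and 20.8 FPKM in SL, 29.2, 28.1 and 26.1 in LL and 29.9 ± 1.07 FPKM in SS (SD, n = 3) (log2 difference 0.60, SE 0.09, adjusted p = 0.0012). The other connexin gene of the list, Gja1, was higher in LL (0.38, adjusted p = 0.003), opposite to Gjb6. Fabp7, a fatty acid binding protein of radial glia and young astrocytes, differed most, at 21.02, 15.8 and 24.03 FPKM in SL, 84.96, 63.8 and 56.5 in LL, 48.9 ± 1.45 FPKM in SS (SD, n = 3) and 71.4 in LS as a mean (log2 difference 1.73, SE 0.15, adjusted p = 3.6e-05). The glutamate transporter gene Slc1a2 and the glutamine synthetase gene Glul were not called (-0.06 and -0.07).

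Of 18 tested genes of endothelial activation, 10 were lower in LL and none was higher (median -0.49), and 2 of the 10, Sele and Selp, passed the filter through SL alone. Sele, E-selectin, on which leukocytes roll, was at 11.4, 8.92 and 8.81 FPKM in SL and 0.0829, 0.386 and 0.0581 in LL (log2 difference -3.94, SE 0.18, adjusted p = 5.8e-07). Selp, P-selectin, was at 6.55, 5.38 and 5.68 FPKM in SL and 0.182, 0.306 and 0.173 in LL (log2 difference -3.15, SE 0.13, adjusted p = 3.4e-07). Icam1, the ligand for leukocyte integrins, was at 18.2, 13.2 and 12.7 FPKM in SL, 2.17, 3.29 and 2.07 in LL and 0.661 ± 0.185 FPKM in SS (SD, n = 3) (log2 difference -2.34, SE 0.18, adjusted p = 1.2e-05). For Icam1 the animals of the groups stood far apart, while for Sele and Selp the separation was fixed by the filter. Ch25h, which makes an oxysterol, was at 14.3, 14.2 and 11.2 FPKM in SL and 0.715, 1.23 and 0.878 in LL (log2 difference -3.26, SE 0.16, adjusted p = 8.9e-07).

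Of 22 tested blood-brain barrier genes, 9 were higher and 3 lower in LL (median 0.22), and the 9 became 6 without SL 2 or LL 1. Slco1c1, the thyroxine transporter of brain endothelium, was at 6.04, 7.62 and 9.36 FPKM in SL, 19.8, 21.3 and 21.3 in LL and 19.1 ± 1.34 FPKM in SS (SD, n = 3) (log2 difference 1.40, SE 0.12, adjusted p = 2.9e-05). Itm2a, an endothelial membrane protein, was at 13.4, 14.1 and 18.1 FPKM in SL, 30.5, 29.6 and 30.9 in LL and 30.3 ± 1.91 FPKM in SS (SD, n = 3) (log2 difference 0.99, SE 0.10, adjusted p = 8.0e-05). In both genes every LL library lay above every SL library. The junction genes Cldn5 (log2 difference 0.24, SE 0.11, adjusted p = 0.25), Tjp1 (-0.01) and Cdh5 (0.22) were not called. Of the 3 lower genes, Ly6a, a membrane-anchored protein of brain endothelium, was at 45.9, 37.3 and 35.9 FPKM in SL and 12.7, 19.6 and 17.3 in LL (log2 difference -1.25, SE 0.16, adjusted p = 5.9e-04), and Ly6c1 was lower too (log2 difference -0.78, SE 0.13, adjusted p = 0.0023). The remaining lower gene was the transporter gene Slc2a1 (log2 difference -0.38, SE 0.05, adjusted p = 5.5e-04). Kdr, the main VEGF receptor, was at 2.42, 2.31 and 2.62 FPKM in SL and 5.15, 5.45 and 4.96 in LL (log2 difference 0.95, SE 0.07, adjusted p = 7.3e-06), and its ligand Vegfa was higher as well (log2 difference 0.66, SE 0.14, adjusted p = 0.012), with the call lost without LL 2 (adjusted p up to 0.052).

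Pericytes and smooth muscle cells form the mural cells, and 4 of 10 tested genes were higher in LL, a count that fell to 2 without LL 1 or LL 2. Rgs5, a pericyte regulator of G proteins, was at 18.99, 19.98 and 23.5 FPKM in SL and 28.8, 29.9 and 28.1 in LL (log2 difference 0.47, SE 0.08, adjusted p = 0.0033). Vtn, vitronectin, was at 18.9, 19.4 and 21.6 FPKM in SL and 37.2, 31.7 and 28.8 in LL (log2 difference 0.68, SE 0.10, adjusted p = 0.0016). Pdgfrb, the receptor that marks pericytes, was not called (0.11), nor were the smooth muscle genes Acta2 (0.05) and Myh11 (-0.07).

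Of 14 tested genes of matrix proteases and their inhibitors, 5 were lower and 2, Timp3 and Plau, were higher in LL. The 2 became 1 without SL 1, SL 2, LL 2 or LL 3 and 0 with the choroid plexus covariate. Mmp3, stromelysin 1, was at 35.9, 19.2 and 11.2 FPKM in SL and at 0.0670, 0.0499 and 0.0470 FPKM in LL (log2 difference -5.20, SE 0.31, adjusted p = 2.7e-06), and it passed the filter through SL alone. Mmp9, a gelatinase, was at 3.33, 2.42 and 2.58 FPKM in SL and 0.773, 0.940 and 0.658 in LL (log2 difference -1.34, SE 0.19, adjusted p = 8.7e-04), and Plaur, the urokinase receptor, was lower too (log2 difference -1.47, SE 0.23, adjusted p = 0.0017). The Mmp3 promoter, at chr9:7445572-7445871 on the plus strand (RefSeq, GRCm38.p6), holds an AP-1 match in capitals.
Mmp3: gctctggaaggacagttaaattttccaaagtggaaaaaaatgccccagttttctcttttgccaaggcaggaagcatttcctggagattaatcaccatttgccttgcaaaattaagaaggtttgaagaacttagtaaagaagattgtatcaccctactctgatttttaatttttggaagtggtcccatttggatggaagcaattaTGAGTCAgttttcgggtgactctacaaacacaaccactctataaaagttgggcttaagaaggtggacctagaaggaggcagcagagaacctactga
This match began 46 bases before the start. TGANTCA was in 6.14% of all 11585 windows, 10.4% of those of genes lower in LL, 6.7% of those of genes higher in LL and 15 of the 71 (21.1%) of lower genes with a log2 difference under -2.

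Transcription factors of the stress response, which act together with NF-kB, were lower in 8 of 14 tested genes and higher in none. Cebpd, a driver of acute-phase genes, was at 14.7, 11.7 and 10.4 FPKM in SL and 3.05, 3.53 and 3.29 in LL (log2 difference -1.74, SE 0.12, adjusted p = 8.2e-06). Its relative Cebpb was at 14.2, 12.9 and 12.3 FPKM in SL and 5.14, 4.87 and 4.08 in LL (log2 difference -1.40, SE 0.12, adjusted p = 3.0e-05). Neither gene overlapped between the groups. Of 15 immediate early genes, 6 were lower, and 10 without SL 1. Fos, a subunit of AP-1, was at 9.59, 11.2 and 12.5 FPKM in SL and 3.32, 4.32 and 5.09 in LL (log2 difference -1.30, SE 0.16, adjusted p = 3.7e-04). Junb, its partner, was at 41.5, 48.5 and 43.1 FPKM in SL and 15.2, 20.7 and 21.4 in LL (log2 difference -1.21, SE 0.13, adjusted p = 1.6e-04). Arc (-0.51), Npas4 (-0.42) and Egr1 (-0.55), which neuronal activity induces, were not called.

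Metallothioneins bind zinc and rise with glucocorticoids and interleukin-6. Together with glucocorticoid targets, 11 of 17 tested genes were lower in LL, with Plin4 tested through SL alone. The count of 11 fell to 5 without SL 2 and to 7 without LL 1. Mt1 was at 588, 398 and 319 FPKM in SL, 92.3, 81.7 and 87.1 in LL and 129 ± 28.4 FPKM in SS (SD, n = 3) (log2 difference -2.27, SE 0.20, adjusted p = 3.1e-05), and Mt2 was lower by a similar amount (log2 difference -2.80, SE 0.24, adjusted p = 3.0e-05). Fkbp5, a co-chaperone of the glucocorticoid receptor and its direct target, was at 11.97, 11.7 and 11.3 FPKM in SL and 6.22, 5.99 and 7.03 in LL (log2 difference -0.81, SE 0.08, adjusted p = 7.5e-05). Its level in SS was 6.30 ± 0.731 FPKM (SD, n = 3). Sgk1 (0.03) and Ddit4 (-0.08), further targets of the receptor, were not called. Of 17 chaperone genes, Xbp1 alone was called (log2 difference -0.34, SE 0.06, adjusted p = 0.004).

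Enzymes that macrophages switch on after LPS were lower in 8 of 15 tested genes and higher in none, with Nos2 and Gch1 tested through SL alone. Acod1, which makes itaconate, was at 24.8, 26.6 and 21.00 FPKM in SL and 0.261, 0.531 and 0.548 in LL (log2 difference -4.71, SE 0.17, adjusted p = 2.4e-07). Nos2, the inducible nitric oxide synthase, was lower too (log2 difference -0.98, SE 0.16, adjusted p = 0.003). Iron genes were lower in 4 of 10 cases and higher in 1. The haem oxygenase gene Hmox1 was at 12.4, 9.42 and 7.79 FPKM in SL and 3.35, 4.16 and 4.59 in LL (log2 difference -1.18, SE 0.15, adjusted p = 4.0e-04). Slc40a1, ferroportin, the exporter of iron, went the other way, at 0.456, 0.288 and 0.585 FPKM in SL and 1.76, 1.73 and 1.48 in LL (log2 difference 1.20, SE 0.13, adjusted p = 1.1e-04). Of 19 tested growth factors and receptors, 4 were higher and 1 was lower in LL (median 0.097). The 4 became 2 with the choroid plexus covariate. The lower gene was Fgf2, basic fibroblast growth factor, at 9.76, 7.59 and 5.20 FPKM in SL and 1.08, 1.25 and 1.01 in LL (log2 difference -2.28, SE 0.17, adjusted p = 1.1e-05).

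Cholesterol synthesis genes were higher in LL in 15 of 24 tested cases and lower in none, with a median of 0.33. Hmgcs1, the synthase that starts the mevalonate route, was at 46.4, 53.97 and 49.4 FPKM in SL, 75.5, 67.4 and 69.8 in LL and 85.3 ± 5.32 FPKM in SS (SD, n = 3) (log2 difference 0.50, SE 0.07, adjusted p = 9.2e-04). Insig1, the sterol-controlled brake on SREBP, was at 14.1, 14.1 and 12.9 FPKM in SL and 21.04, 17.3 and 18.2 in LL (log2 difference 0.45, SE 0.07, adjusted p = 0.0014). Stard4, a sterol carrier, was at 3.88, 3.98 and 3.92 FPKM in SL and 5.49, 5.53 and 5.50 in LL (log2 difference 0.44, SE 0.04, adjusted p = 6.6e-05). These differences were small but exceeded the spread between animals, and every SL library lay below every LL library in the 3 genes. The count was 7 with the choroid plexus covariate. Of 10 tested genes of sterol efflux, 2 were higher and 1 lower in LL, and 0 of these 3 calls were made with the LL and SL libraries alone in the fit. The sterol response motif TCACNCCAC was in 1 of 17 windows of this list and in 1.39% of all windows.

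In the oligodendrocyte lineage, 3 of 17 genes of precursors and premyelinating cells were higher and none was lower. Gpr17, a receptor of premyelinating cells, was at 18.8, 24.3 and 24.9 FPKM in SL, 34.9, 29.9 and 30.5 in LL and 41.2 ± 0.914 FPKM in SS (SD, n = 3) (log2 difference 0.49, SE 0.09, adjusted p = 0.0069). Pdgfra (-0.08) and Olig2 (-0.04) were not called. Myelin genes leaned the other way, with 4 of 17 lower and a median of -0.41, but the count depended on single animals. It was 1 without LL 2, 1 without SL 2, 2 without SL 1 8 without SL 3, 0 with the LL and SL libraries alone in the fit and 8 with voom. Mal was at 40.6, 56.8 and 33.96 FPKM in SL and 25.2, 16.4 and 24.5 in LL (log2 difference -0.97, SE 0.20, adjusted p = 0.012), with SL 2 the highest and LL 2 the lowest library. Mbp, myelin basic protein, was at 291, 357 and 247 FPKM in SL and 255, 161 and 234 in LL, where the groups overlapped, and was not called (log2 difference -0.47, SE 0.17, adjusted p = 0.12).

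Of 20 glutamate and GABA receptor genes and 25 synaptic genes, none was called by limma, and 3 of each had an unadjusted p under 0.05. With voom on whole fragments 0 receptor genes and 1 synaptic gene were called. Gria1, a subunit of AMPA receptors, was at 157, 163 and 162 FPKM in SL and 140.0, 150.0 and 160.4 in LL, with overlap (log2 difference -0.10, SE 0.06, adjusted p = 0.43). Among 17 interneuron genes and neuropeptides, Pvalb, parvalbumin, was the 1 called, at 11.7, 16.4 and 16.98 FPKM in SL and 9.27, 9.80 and 11 in LL (log2 difference -0.55, SE 0.13, adjusted p = 0.02), and the call was lost without SL 2, SL 3, LL 1 or LL 2 (adjusted p up to 0.083).

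Genes of neural stem cells and immature neurons were higher in LL in 4 of 15 cases and lower in none (median 0.42). The count was 2 without LL 1, 8 without SL 1 and 9 with voom. Nes, the filament protein of neural stem cells, was at 2.63, 2.18 and 2.03 FPKM in SL and 4.09, 3.43 and 3.34 in LL (log2 difference 0.57, SE 0.11, adjusted p = 0.0079). Dpysl3, a cytoskeletal regulator of growing neurites, was at 38.7, 32.2 and 33.5 FPKM in SL and 48.4, 48.2 and 43.1 in LL (log2 difference 0.42, SE 0.07, adjusted p = 0.0033). Dcx, doublecortin, the marker of migrating young neurons, had a log2 difference of 0.50 and was not called. Cell-cycle genes were higher in 8 of 26 cases (median 0.32), but the count was 1 without LL 1, 2 without SL 2, 3 without LL 2, 5 without SL 1 or LL 3 and 2 with the LL and SL libraries alone in the fit. Mki67 was at 0.877, 0.670 and 0.981 FPKM in SL and 1.84, 1.51 and 1.30 in LL (log2 difference 0.61, SE 0.14, adjusted p = 0.017), and the call was lost without SL 2, LL 1 or LL 2 (adjusted p up to 0.077). Aurkb, a mitotic kinase, was at 0.176, 0.299 and 0.414 FPKM in SL and 0.874, 0.870 and 0.819 in LL (log2 difference 0.78, SE 0.16, adjusted p = 0.011).

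Tissue that adjoins the hippocampus differed between the groups as well. Of 18 choroid plexus genes, 6 were called higher in LL and none lower (median 1.61). Kcne2, a potassium channel subunit of this epithelium, was at 1.31, 1.14 and 1.25 FPKM in SL, 6.33, 6.08 and 9.31 in LL and 7.42 ± 1.03 FPKM in SS (SD, n = 3) (log2 difference 2.13, SE 0.51, adjusted p = 0.024), and the call was lost without SL 1, SL 2, SL 3, LL 1, LL 2 or LL 3 (adjusted p up to 0.089). Ttr, transthyretin, its most abundant transcript, was at 853, 838 and 605 FPKM in SL and 2169, 2264 and 3086 in LL, without overlap, and did not pass the test (log2 difference 1.71, SE 1.12, adjusted p = 0.45). The LS libraries, which share the estimate of the spread, ranged from 38.9 to 1240 FPKM in the summed level of the list. With LS 2 and LS 3 left out of the fit, all 18 genes were called, and the count was 0 without SL 2, SL 3, LL 1 or LL 3. Of the 12 protein-coding genes with the largest differences on the higher side, 8 (Prr32, Kcne2, Col8a1, Slc4a5, Msx1, Mfrp, Col8a2 and Sostdc1) also had LS means below their SS means, and 6 of these, other than Msx1 and Col8a2, lost their calls in 4 to 6 of the 6 fits with 1 library left out.

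Ependymal cilia genes were higher in 4 of 8 tested cases, as in Tmem212, at 1.65, 1.30 and 1.08 FPKM in SL and 5.90, 3.27 and 4.25 in LL (log2 difference 1.41, SE 0.21, adjusted p = 0.0014), and this count was 2 without LL 1 and 0 with the choroid plexus covariate. Meningeal fibroblast genes split, 5 of 12 higher and 3 lower, with the 5 becoming 3 without SL 2, LL 1 or LL 3. Myoc, myocilin, was at 1.96, 1.25 and 1.23 FPKM in SL, 10.05, 6.20 and 6.10 in LL, 10.4 ± 0.324 FPKM in SS (SD, n = 3) and 11.5 in LS as a mean (log2 difference 1.99, SE 0.20, adjusted p = 8.4e-05). Igfbp2, a carrier of insulin-like growth factors, was at 26.5, 24.7 and 22.3 FPKM in SL and 74.8, 66.6 and 77.5 in LL (log2 difference 1.56, SE 0.27, adjusted p = 0.0039). Aldh1a2, which makes retinoic acid, was lower (log2 difference -1.28, SE 0.27, adjusted p = 0.013). Whether the amount of choroid plexus, ependyma and meninges taken with the hippocampus differed, or their expression, cannot be told apart here. The choroid plexus score differed between the groups, so a fit with it as a covariate also removes group differences that follow it. With it, the counts of higher genes fell from 4 to 1 for neural stem cells, from 8 to 2 for the cell cycle, from 4 to 2 for mural cells and from 3 to 1 for oligodendrocyte precursors. The counts of lower genes fell from 7 to 2 for resting astrocyte genes, from 11 to 4 for glucocorticoid targets and metallothioneins and from 8 to 4 for the macrophage enzymes. With the LL and SL libraries alone in the fit, these 3 counts were 4, 7 and 5, and 2 prostaglandin pathway genes and 1 monocyte gene were lower.

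**Figure D5:**
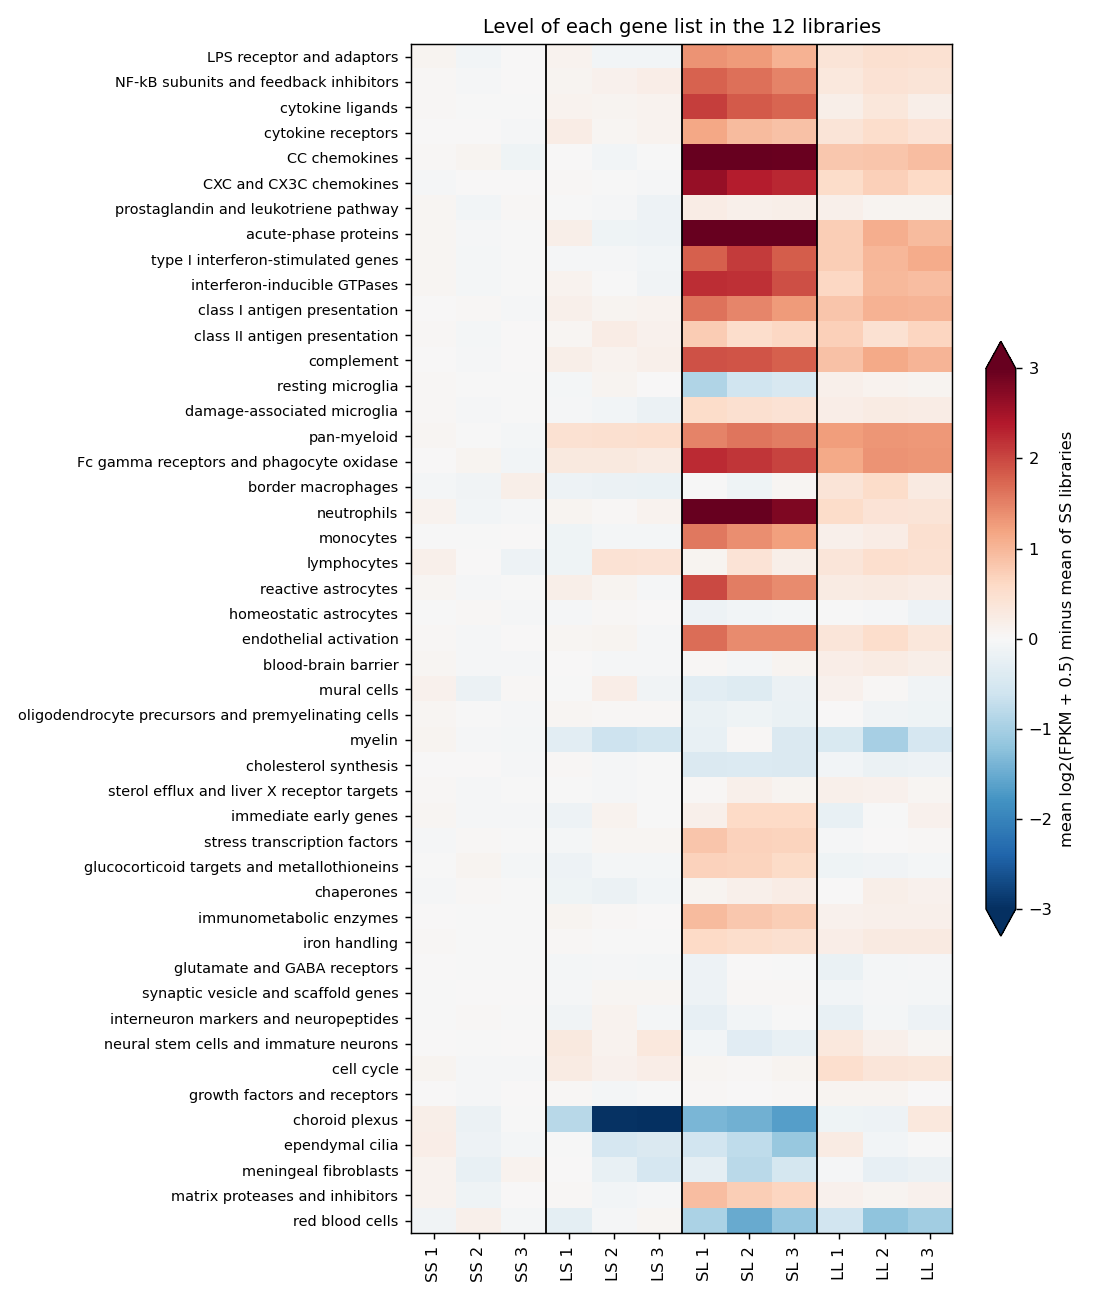
Mean log2(FPKM + 0.5) of the tested genes of each list in each of the 12 libraries, minus the mean of the 3 SS libraries, on a colour scale cut at -3 and 3, with lines between the groups. The 3 SL columns stand out in red for most lists from the LPS receptor to complement (the prostaglandin list is pale), and the 3 LL columns are paler for these lists. The class II list is an exception, with similar levels in SL and LL. The resting microglial list is blue in SL alone, and the choroid plexus list is blue in SL and LS.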

How the data were processed

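Polyadenylated RNA of the hippocampus of 12 mouse pups was sequenced, 3 animals in each of 4 groups. The authors deposited 1 table of FPKM per gene. Per the submitters' processing notes, HISAT2 2.0.5, featureCounts 1.5.0-p3 and build mm10 were used. Whether counting used strand, and how it treated fragments that fit several genes, is not stated by the sources used. Multiplied by gene length, 100% of 309337 deposited FPKM values were whole multiples of 1 fragment (tolerance 0.01), so whole fragments were recovered for voom. The 17687 genes that reached 0.5 FPKM in 3 or more of the 12 libraries were tested. Log2(FPKM + 0.5) was fitted with limma 3.58.1 in R 4.3.3, with 1 mean per group, 8 residual degrees of freedom and a mean trend. All p-values are two-sided, with Benjamini-Hochberg adjustment over all tested genes and a threshold of 0.05. The steps were tested on simulated data. The alternatives were other scalings, pseudocounts and filters, voom, library weights, a replicate block, covariates and leaving out each library. The members and gene lists were chosen with earlier results of these data known. Named genes were up to 12 protein-coding genes per direction by size (called, at least 1 FPKM in the higher group, no overlap), up to 4 called genes per list and a fixed set. Other genes are named to describe a list and were chosen with their values known. Nothing in the labels says whether the animals shared a litter, so p-values measure the spread between these animals. Promoter sequences are from RefSeq, build GRCm38.p6.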

Additional observations from a re-analysis of the deposited data

How the results depend on the processing

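Of the results for 181 named genes under 21 alternatives, 3542 kept their direction and side of the threshold, 233 kept their direction and lost the call, 3 gained a call, and 1 reversed: Ttr, not called, had a log2 difference of -1.79 with the choroid plexus covariate. That covariate gave 785 calls (264 higher, 521 lower), and voom on whole fragments gave 965 higher genes. With 1 library left out there were 1004 to 1442 calls, 326 to 537 of them higher and 675 to 905 lower, and the lowest total came without LL 1. The other total counts ran from 1089, with the LL and SL libraries alone in the fit, to 2062 with library weights. They were 1724 after quantile normalization, 1593 after median centring, 1358 with no filter, 1288 with a filter of 2 FPKM and 1799 among protein-coding genes. Except where a value is given above, the cause of these moves was not tested. Animals with the same replicate number in LL and SL did not deviate together (r of -0.04 to 0.07 over 3 pairs), so the numbers were not taken as pairs, and a fit with the replicate number as a block called 1542 genes, 584 higher and 958 lower. With 3 animals a group an exact permutation test of 1 gene cannot go below 0.1, so all calls rest on the spread pooled over genes. Levels under about 0.5 FPKM rest on few fragments, and of the 1358 genes called with no filter 1194 were also called as reported.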

Other observations

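The genes given here lie outside the lists above and were chosen after their values were seen. The lists hold 103 of the 588 genes higher in LL and 252 of the 966 lower genes. Of the lower genes outside them, Marco, a scavenger receptor of macrophages, was at 20.8, 15.2 and 11 FPKM in SL and 1.34, 1.45 and 1.36 in LL (log2 difference -3.06, SE 0.20, adjusted p = 4.2e-06), and Msr1, another scavenger receptor, was lower too (log2 difference -2.79, SE 0.17, adjusted p = 3.3e-06). Fpr1, a receptor for bacterial formyl peptides, was at 14.5, 11.8 and 9.63 FPKM in SL and 1.55, 2.07 and 1.21 in LL (log2 difference -2.57, SE 0.20, adjusted p = 1.4e-05). Nlrp3, the sensor of an inflammasome, was at 2.88, 2.86 and 2.80 FPKM in SL and 0.486, 0.543 and 0.553 in LL (log2 difference -1.71, SE 0.12, adjusted p = 8.9e-06), with the 3 libraries of each group close together. Ifitm3, a membrane protein that blocks virus entry, was at 245, 189 and 151 FPKM in SL and 44.1, 71.8 and 51.1 in LL (log2 difference -1.80, SE 0.19, adjusted p = 1.1e-04), and its relatives Ifitm1 and Ifitm2, which share sequence with it, were lower as well (-2.47 and -1.68). Chil1, a chitinase-like protein that reactive astrocytes secrete, was at 95.7, 56.1 and 29.5 FPKM in SL and 1.12, 2.92 and 1.48 in LL (log2 difference -4.62, SE 0.37, adjusted p = 2.0e-05), with SL 1 the highest. Fas, a death receptor, was at 7.46, 5.64 and 4.06 FPKM in SL and 0.469, 0.649 and 0.611 in LL (log2 difference -2.50, SE 0.21, adjusted p = 2.5e-05). The imprinted non-coding RNA H19 was at 14.1, 7.72 and 12.1 FPKM in SL and 2.01, 1.96 and 1.67 in LL (log2 difference -2.27, SE 0.19, adjusted p = 2.3e-05), beside 0.836 ± 0.186 FPKM in SS (SD, n = 3).

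Among the higher genes outside the lists, Slc22a8, an organic anion transporter found in brain endothelium and choroid plexus, was at 1.21, 1.95 and 2.31 FPKM in SL and 7.41, 5.60 and 5.10 in LL (log2 difference 1.51, SE 0.18, adjusted p = 2.5e-04). Apln, the peptide ligand apelin, was at 1.24, 2.34 and 2.82 FPKM in SL and 6.95, 5.85 and 6.49 in LL (log2 difference 1.44, SE 0.19, adjusted p = 5.5e-04), and its receptor gene Aplnr was higher as well (log2 difference 1.39, SE 0.19, adjusted p = 6.6e-04). Slc38a3, a glutamine transporter, was at 6.64, 6.75 and 7.09 FPKM in SL and 18.6, 16.1 and 14.8 in LL (log2 difference 1.21, SE 0.08, adjusted p = 6.9e-06), and Slc7a10, an astrocytic transporter of serine, was at 7.46, 10.1 and 11 FPKM in SL and 21.02, 18.04 and 20.3 in LL (log2 difference 1.03, SE 0.13, adjusted p = 3.3e-04). Hes5, a target of Notch signals, was at 1.97, 2.36 and 2.20 FPKM in SL and 5.16, 4.98 and 4.75 in LL (log2 difference 1.03, SE 0.13, adjusted p = 5.7e-04). In these 6 genes every LL library lay above every SL library. Pld4, an exonuclease of microglial endolysosomes, was at 2.21, 2.80 and 2.91 FPKM in SL and 7.17, 6.95 and 7.04 in LL (log2 difference 1.27, SE 0.11, adjusted p = 3.3e-05), beside 2.21 ± 0.390 FPKM in SS (SD, n = 3), so LL stood above both other groups. Ctsh, a lysosomal protease, was likewise highest in LL of these 3 groups, at 3.20, 2.94 and 3.87 FPKM in SL and 5.82, 5.82 and 5.44 in LL (log2 difference 0.70, SE 0.08, adjusted p = 3.0e-04) and 3.17 ± 0.127 FPKM in SS (SD, n = 3).

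An immunoglobulin joining segment, Ighj4, was listed at 0 in every SL library and stood at 4.47, 5.83 and 4.70 FPKM in LL. It was at 6.37, 6.44 and 2.01 FPKM in LS and at 1.09, 2.15 and 0 FPKM in SS. Its feature is short, so these levels rest on few fragments. Ighm, the constant region of IgM, was at 3.05, 2.56 and 3.35 FPKM in SL and 10.5, 5.84 and 6.73 in LL (log2 difference 1.20, SE 0.23, adjusted p = 0.0081). Its levels were 9.41, 7.16 and 6.05 FPKM in LS and 3.77, 3.87 and 2.24 in SS, so the LS libraries, with LPS on day 3 alone, were also above the SL libraries. Of the 15 listed lymphocyte genes, 3 could be tested and the summed level of the list was 1.79 to 3.45 FPKM in SL and 3.15 to 4.00 in LL. The part of lymphocytes in the immunoglobulin values was not tested.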
